A study of Homo sapiens with 8 samples.

Results

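The genes described here are 3 FOXO transcription factors, FOXO1, FOXO3 and FOXO4, and 7 genes known as their targets, DEPP1, SESN3, CITED2, BCL6, IRS2, INSR and PIK3IP1. They are 10 of the 61806 genes in the deposited table and were found by gene symbol. The set was chosen by a reading of the same contrast, O/A against ethanol, in which DEPP1 was already known to be among the genes with the largest falls, and the other members were added as FOXO factors and classical FOXO targets. The values of the 10 genes between the conditions are therefore a description. The thresholds of the fit over all genes are used below to label the 10, which is no support for a change in the set.

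N/TERT-1 cells, an immortalized line of human keratinocytes grown in serum-free medium with epidermal growth factor and bovine pituitary extract, gave 8 mRNA libraries from wild-type cells. Of these, 4 came from cells given ethanol, the solvent, and 4 from cells given O/A, a mixture of oligomycin, which blocks the mitochondrial ATP synthase, and antimycin A, which blocks complex III of the respiratory chain. The labels give neither dose nor time, while the study describes 4 h of treatment for this comparison and 4 independent experiments per condition. Every library comes from this 1 line, so other keratinocytes were not sampled. Libraries held 17210404 to 20999927 counted reads, all 10 keratinocyte markers were above 1 FPKM, and the summed FPKM was 3748 to 4026 in ethanol and 3479 to 3662 in O/A. Summed over 8 fibroblast markers it was 2.42 to 2.95 and 2.46 to 2.71, over 6 melanocyte markers 1.39 to 1.81 and 1.25 to 1.71, with 2 of them at 0 in every library, and over 9 immune and endothelial markers 0.66 to 1.01 and 0.89 to 1.22, with 2 of them at 0. FPKM is reads scaled by exon length and by the reads of the library.

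FOXO proteins are forkhead transcription factors that stand at the end of insulin and growth factor signaling. When growth factors activate PI3K and AKT, AKT phosphorylates FOXO proteins and they are held in the cytoplasm, and when AKT is less active, or when cells are stressed, they enter the nucleus and switch on genes for metabolism, stress resistance, cell cycle arrest and autophagy. Several of their targets act back on the same pathway, and FOXO activity is set mainly on the protein, which mRNA levels do not measure.

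FOXO proteins bind the core motif GTAAACA, and a related form, CAAAACA, is known from insulin-responsive promoters. These letters were searched on both strands, as GTAAACA or TGTTTAC and as CAAAACA or TGTTTTG, in RefSeq promoters of GRCh38.p14 that run from 250 bases before to 50 bases after each transcript start. All 10 genes had at least 1 promoter in that table, 17 in all. GTAAACA was found in promoters of DEPP1, PIK3IP1 and FOXO4, 3 of 10 genes, and in 4.19% of the 27305 genes of the table, or 3.42% of its 35116 promoters. CAAAACA was found in the promoter of IRS2, 1 of 10 genes, and in 6.05% of all genes, or 4.92% of promoters, and the 2 motifs do not overlap. Most of the 10 genes were chosen as known FOXO targets, so matches among them follow in part from the choice. They also had more promoters per gene to search, 17 for 10 genes against 35116 for 27305. No match says only that the letters are not in these windows.

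The upstream sequence of DEPP1 is shown because DEPP1 had the largest difference of the 10 genes, and the other stretches because they hold the remaining matches. All are given 5′ to 3′ on the strand of the gene, with the motif in capitals. The DEPP1 sequence is the 250 bases before its start, chr10:44978810-44979059 on the minus strand, where GTAAACA begins 180 bases before the start. In the GENCODE annotation of GRCh38 this stretch touches no exon and lies in an intron of RASSF4, a gene on the opposite strand. The 30 bases of FOXO4 are chrX:71095863-71095892 on the plus strand, with the motif starting at base 24 of the transcript. Those of PIK3IP1 are chr22:31292454-31292483 on the minus strand, with the motif on the opposite strand at base 17 from 1 of 2 listed starts. Those of IRS2 are chr13:109786605-109786634 on the minus strand, with CAAAACA on the opposite strand 40 bases before the start.
DEPP1: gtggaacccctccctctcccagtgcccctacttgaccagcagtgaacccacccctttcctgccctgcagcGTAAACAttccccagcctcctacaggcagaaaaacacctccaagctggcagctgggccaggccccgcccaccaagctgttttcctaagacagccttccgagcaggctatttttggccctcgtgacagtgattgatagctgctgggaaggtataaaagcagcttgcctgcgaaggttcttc
FOXO4: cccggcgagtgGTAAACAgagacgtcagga
PIK3IP1: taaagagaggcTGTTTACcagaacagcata
IRS2: gagtcacatgtTGTTTTGctcttcttagtt

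The shares of changed genes lay close together with and without GTAAACA. Among 370 tested genes with GTAAACA in a promoter, 55 (14.9%) were upregulated and 72 (19.5%) downregulated, with a median log2(FC) of 0.01. Among 10321 tested genes whose promoters lack it, 16% were upregulated and 20.2% downregulated, with a median of -0.01. DEPP1 was thus 1 of the 72 downregulated genes with the motif, while FOXO4 and PIK3IP1, which also have it, passed no threshold. Among 503 tested genes with CAAAACA, 19.1% were upregulated and 17.9% downregulated, with a median log2(FC) of 0.03. Among 10188 tested genes without CAAAACA these were 15.8% and 20.2%, with a median of -0.01. Neither comparison was tested.

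All 10 genes had at least 10 reads in at least 4 libraries, and all entered the fit over 14893 genes. Log2(FC) is the log2 fold change of O/A over ethanol from edgeR with its standard error (SE), and CPM are read counts scaled to a common library total by TMM. A gene counted as upregulated or downregulated at an adjusted p of at most 0.05 and a log2(FC) beyond 0.25 in either direction. Among all genes tested, 34.7% passed, 15.8% upregulated and 18.9% downregulated. Of the 10 genes 5 passed, SESN3, CITED2 and IRS2 higher and DEPP1 and FOXO1 lower in O/A, a count that follows in part from the choice of the set. Groups that did not overlap were seen for 6 of the 10, the same 5 and FOXO3, against 47.6% of all genes tested. The median log2(FC) of the 10 was 0.13, that of all genes tested was 0.00, and the members ran from -2.77 to 0.76. In such bulk libraries fewer cells with a transcript and less transcript per cell cannot be told apart.

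**Figure D1:**
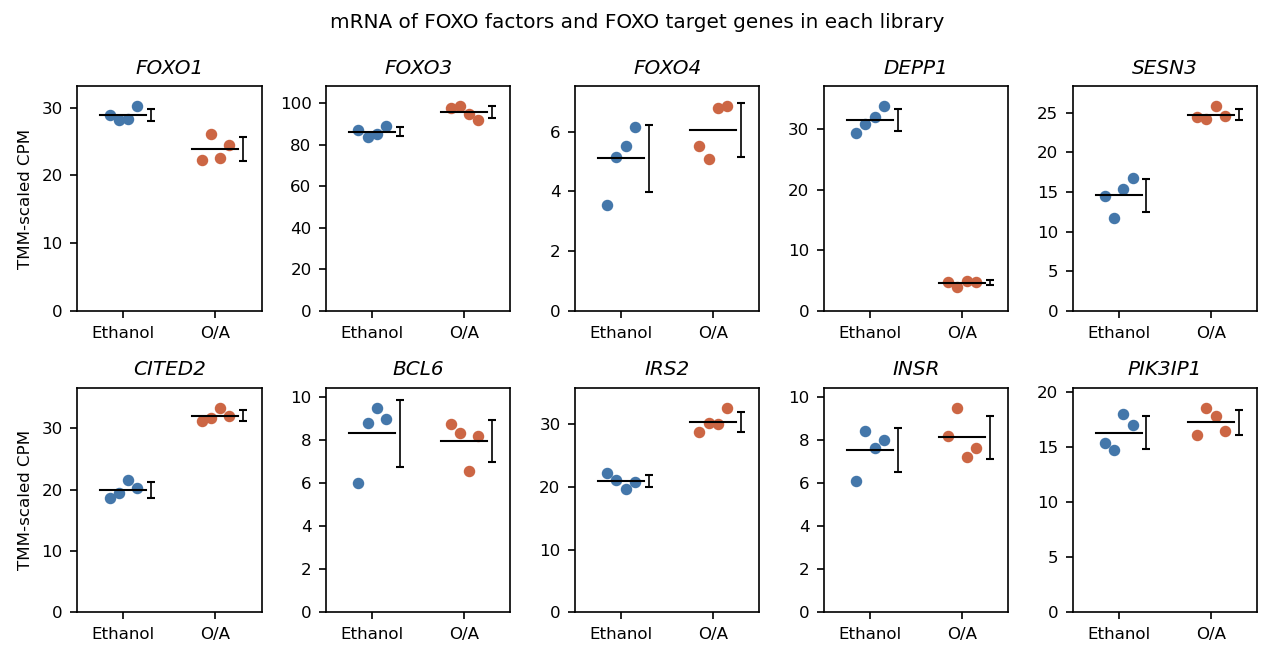
TMM-scaled CPM (vertical axes, from 0) of each of the 10 genes in the 4 ethanol (blue) and 4 O/A (orange) libraries, with a point per library, a line at the mean and a bar of 1 SD. DEPP1 falls from 29.4 to 33.8 CPM in ethanol to 3.99 to 4.92 in O/A, SESN3, CITED2 and IRS2 lie higher in every O/A library, and the points of FOXO4, BCL6, INSR and PIK3IP1 overlap.

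The 3 FOXO factors did not move alike. FOXO1 was lower in every O/A library, FOXO3 was slightly higher in every O/A library, and FOXO4 did not separate the conditions. FOXO1, the factor best known for hepatic glucose production and insulin response, had 29.0, 28.2, 28.3 and 30.2 CPM in ethanol and 22.3, 26.1, 22.5 and 24.5 CPM in O/A. The highest O/A library, replicate 2, was still below the lowest ethanol library. Its log2(FC) was -0.28 (SE 0.058), a 1.21-fold lower level, close to the threshold of 0.25, and it was -0.25 without O/A replicate 1 and also -0.25 without O/A replicate 3, both just inside it.

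FOXO3, the most abundant of the 3 and a factor linked to stress resistance and quiescence, had 87.3, 83.9, 85.1 and 88.9 CPM in ethanol and 97.5, 98.4, 94.8 and 92.0 CPM in O/A. The conditions were apart by the gap between ethanol replicate 4 and O/A replicate 4, and the log2(FC) was 0.15 (SE 0.035), within the threshold. FOXO3B, on chromosome 17, is known as a close copy of FOXO3, though the 2 sequences were not compared here. It was looked at after the values of FOXO3 were seen, since reads could be shared between them. ZNF286B, which overlaps FOXO3B on the same strand, held 7 to 47 reads per library. FOXO3B held 151 to 214 reads in the ethanol libraries, against 111 to 118 with O/A. Its log2(FC) was -0.59 (SE 0.099, edgeR quasi-likelihood adjusted p = 1.33e-06). Its part of the summed CPM of both genes was 9.17 to 10.6% in ethanol and 5.73 to 6.87% in O/A. The summed CPM was 92.4 to 98.9 in ethanol and 98.7 to 104 in O/A, so the conditions overlapped slightly once the reads of FOXO3B were added, with a log2 ratio of 0.09. How reads were divided between the 2 genes was not tested, and the value of FOXO3 is uncertain to that extent.

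FOXO4, a factor known for cell cycle arrest, had 3.56, 5.16, 5.53 and 6.16 CPM in ethanol and 5.52, 5.07, 6.78 and 6.84 CPM in O/A. Ethanol replicate 1 was the lowest library and the conditions overlapped. The log2(FC) was 0.24 (SE 0.14), with only 66 to 131 reads per library, and it ran from 0.10 without ethanol replicate 1 to 0.35 without ethanol replicate 4, where it passed both thresholds.

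Compared per length, FOXO3 mRNA made up 63.4 to 66.2% of the summed FPKM of the 3 factors in ethanol and 67.0 to 71.0% in O/A. The part of FOXO1 was 27.5 to 28.3% in ethanol and 20.9 to 23.7% in O/A, and that of FOXO4 5.47 to 8.91% and 7.21 to 10.1%. The shares of FOXO3 and FOXO1 did not overlap between conditions, while those of FOXO4 did. For FOXO3 the gap was narrow, from 66.2% in ethanol replicate 1 to 67.0% in O/A replicate 4. FOXO3B is not in these values, so the uncertainty given for FOXO3 also holds for the shares, the sum and the ratio. The sum itself was 17.3 to 18.5 FPKM in ethanol and 17.6 to 18.3 FPKM in O/A and overlapped between conditions, with a smaller part of FOXO1 in it in O/A. The FPKM ratio of FOXO1 to FOXO3 was 0.43 ± 0.005 (SD, n = 4) in ethanol and 0.32 ± 0.025 (SD, n = 4) in O/A, with no overlap.

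**Figure D2:**
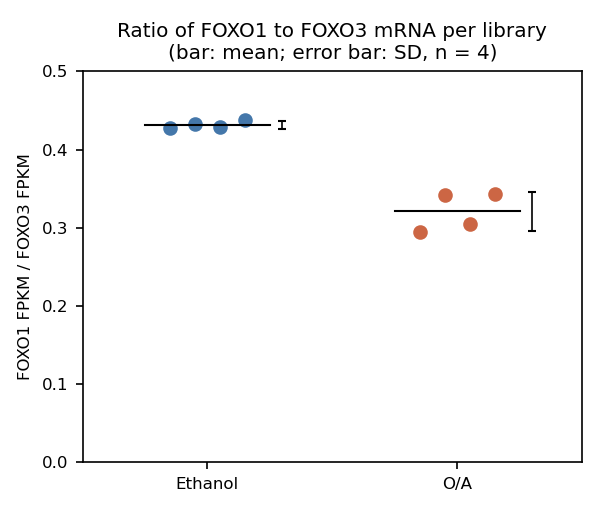
Ratio of FOXO1 to FOXO3 FPKM (vertical axis, no unit, from 0) in each of the 4 ethanol and 4 O/A libraries, with the mean as a line and 1 SD as a bar. The ethanol libraries lie between 0.427 and 0.437 and the O/A libraries between 0.295 and 0.343, with no overlap. Reads of FOXO3B are not included.

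DEPP1 encodes a small protein induced by FOXO factors and linked to autophagy. It lies on chromosome 10 from 44970981 to 44978809 on the minus strand (GRCh38). It had 545, 549, 563 and 718 reads in ethanol and 84, 74, 93 and 83 reads in O/A, which is 29.4, 30.8, 32.1 and 33.8 CPM against 4.83, 3.99, 4.92 and 4.77 CPM. All 4 O/A libraries were far below all 4 ethanol libraries. The log2(FC) was -2.77 (SE 0.081), a 6.81-fold lower level, and 4 of the 14893 genes tested had a lower log2(FC). Its FPKM was 10.7 ± 0.66 (SD, n = 4) in ethanol and 1.53 ± 0.14 (SD, n = 4) in O/A, so DEPP1 went from a range shared with FOXO3, the most abundant of the 10 genes, to one that overlapped FOXO4 and BCL6. The direction of this known FOXO target was opposite to that of the 3 targets that were higher.

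DEPP1 lies whole inside RASSF4, which is read from the other strand, and whether reads were counted by strand is not given in the sources used here. RASSF4 had 53 to 74 reads in the ethanol libraries, against 22 to 50 with O/A, and its log2(FC) was -0.69 (SE 0.18, edgeR quasi-likelihood adjusted p = 9.76e-04). Its reads came to 9.73 to 10.8% of those of DEPP1 across the ethanol libraries and to 26.2 to 59.5% across the O/A libraries. How far reads of RASSF4 entered the count of DEPP1 was not tested. The other genes that overlap a member on either strand held at most 9 reads in any library and were not tested.

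In the 8 libraries, 3 genes had the profile nearest to that of DEPP1 by Euclidean distance of centred log2 CPM. They were MT-ND6, a mitochondrially encoded subunit of complex I (distance 0.62, log2(FC) -2.89), PPARGC1B, a transcriptional coactivator of mitochondrial genes (0.64, log2(FC) -2.65), and S1PR5, a receptor for sphingosine 1-phosphate (0.82, log2(FC) -2.69). The median distance over all genes was 3.76. The 8 points fall into the 2 conditions, so the measure mostly reads the size of the fall.

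SESN3 encodes sestrin 3, a stress-induced inhibitor of mTORC1 that FOXO factors switch on. It had 14.4, 11.7, 15.4 and 16.7 CPM in ethanol and 24.4, 24.3, 25.8 and 24.6 CPM in O/A. Every O/A library was above every ethanol library, and the ethanol libraries were the more spread, with replicate 2 lowest. The log2(FC) was 0.76 (SE 0.073), a 1.69-fold higher level, and ran from 0.67 to 0.84 when single libraries were left out. SESN3 thus had the highest log2(FC) of the 10 genes, and 676 of the genes tested had a higher value.

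CITED2 encodes a transcriptional co-regulator that competes with hypoxia-inducible factors for the coactivators CREBBP and EP300. It had 18.6, 19.5, 21.5 and 20.3 CPM in ethanol and 31.2, 31.6, 33.3 and 32.0 CPM in O/A. The conditions were far apart, with a log2(FC) of 0.68 (SE 0.057), a 1.61-fold higher level. In FPKM CITED2 was 7.90 ± 0.53 (SD, n = 4) in ethanol and 12.3 ± 0.32 (SD, n = 4) in O/A, which made it the most abundant of the 10 genes in O/A together with FOXO3, whose range it overlapped.

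BCL6, a transcriptional repressor best known from germinal center B cells, did not separate the conditions. It had 6.03, 8.81, 9.51 and 8.98 CPM in ethanol and 8.74, 8.35, 6.56 and 8.22 CPM in O/A. Ethanol replicate 1 and O/A replicate 3 were the low libraries of each condition, and the log2(FC) of -0.07 (SE 0.12) turned to 0.02 without O/A replicate 3.

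The last 3 members belong to the insulin and PI3K pathway itself, and of these IRS2 was higher while INSR and PIK3IP1 did not separate the conditions. IRS2, an adaptor that carries the signal from the insulin and IGF receptors to PI3K, had 22.1, 21.1, 19.7 and 20.8 CPM in ethanol and 28.7, 30.2, 30.1 and 32.6 CPM in O/A. The lowest O/A library was well above the highest ethanol library, and the log2(FC) was 0.54 (SE 0.058), a 1.45-fold higher level. INSR, the insulin receptor, had 6.09 to 8.41 CPM in ethanol and 7.20 to 9.48 CPM in O/A, with a log2(FC) of 0.11 (SE 0.11). PIK3IP1, a membrane protein that inhibits PI3K, had 14.8 to 18.0 CPM in ethanol and 16.1 to 18.5 CPM in O/A, with a log2(FC) of 0.08 (SE 0.073). The conditions overlapped for both genes.

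The spread between ethanol libraries was widest for FOXO4, BCL6, SESN3 and INSR, with a coefficient of variation of the CPM of 13.5 to 21.8%, and narrowest for FOXO3, at 2.57%. FOXO4, BCL6 and INSR had the fewest reads, 66 to 191 per library. In ethanol the median over 10592 tested genes with a mean of at least 100 reads was 4.26%. Those genes include many with far more reads, so this median is not matched to the genes with few reads. Ethanol replicate 1 was the lowest ethanol library for FOXO4, BCL6, INSR, DEPP1 and CITED2.

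Ordered by FPKM in ethanol, FOXO3 (11.4) and DEPP1 (10.7) stood first with overlapping ranges, followed by CITED2 (7.90), FOXO1 (4.92), PIK3IP1 (4.34), IRS2 (2.60), BCL6 (1.43), SESN3 (1.40), FOXO4 (1.37) and INSR (0.708). Besides the first pair, FOXO1 overlapped PIK3IP1, and BCL6 overlapped SESN3, as SESN3 did FOXO4. The median FPKM of the genes tested was 4.24 in ethanol, so 5 of the members lay above it and 5 below. In O/A the order was CITED2 (12.3), FOXO3 (12.3), PIK3IP1 (4.46), FOXO1 (3.94), IRS2 (3.67), SESN3 (2.30), FOXO4 (1.57), DEPP1 (1.53), BCL6 (1.32) and INSR (0.735). SESN3 there no longer overlapped FOXO4, while FOXO1 overlapped both of its neighbors and DEPP1 overlapped FOXO4 and BCL6.

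**Figure D3:**
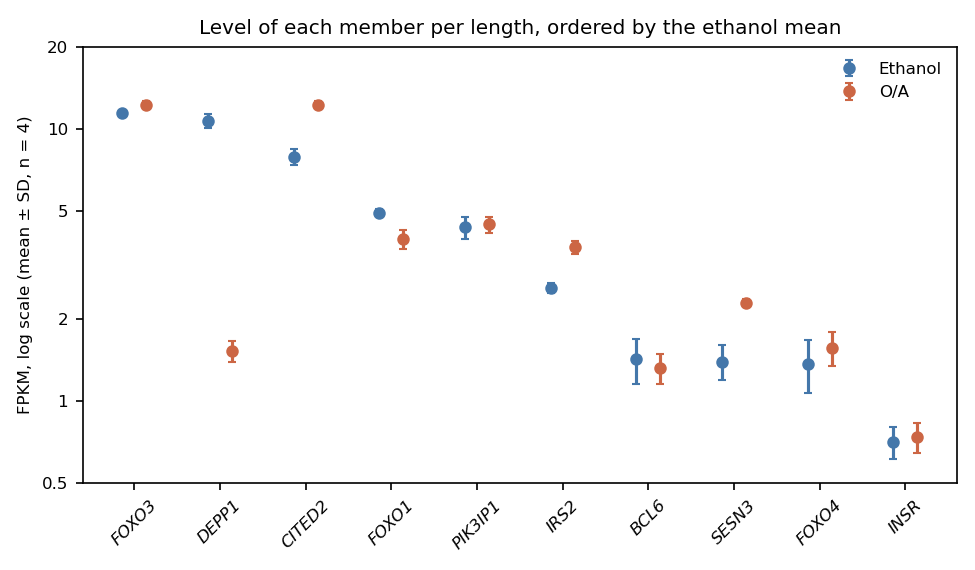
FPKM (vertical axis, log scale, mean with a bar of 1 SD, 4 libraries each) of the 10 genes in ethanol (blue) and O/A (orange), ordered by the ethanol mean. DEPP1 drops from 10.7 to 1.53 FPKM, whereas INSR is lowest in both conditions, at 0.708 and 0.735 FPKM.

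Relatives of the members, a list also written with earlier results known, are given for comparison. Of 10 relatives 5 had enough reads, and 4 passed both thresholds, 1 upregulated and 3 downregulated, where 34.7% of all genes tested passed. The relatives of SESN3 moved in opposite directions. SESN2, the sestrin known as a target of ATF4, rose with a log2(FC) of 2.43 (SE 0.039, edgeR quasi-likelihood adjusted p = 9.39e-44), from 32.9 to 37.8 CPM in ethanol to 178 to 194 CPM in O/A. SESN1, a p53 and FOXO target, fell with a log2(FC) of -0.46 (SE 0.052, adjusted p = 8.03e-11, same test), from 39.5 to 42.8 CPM to 28.1 to 32.9 CPM. Neither overlapped between conditions.

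IRS1, a relative of IRS2 and also an adaptor of the insulin and IGF receptors, fell while IRS2 was higher. It had 17.0 to 19.3 CPM in ethanol and 5.29 to 5.77 CPM in O/A, with a log2(FC) of -1.68 (SE 0.087, edgeR quasi-likelihood adjusted p = 9.45e-23). IGF1R, the receptor related to INSR, had a log2(FC) of -0.08 (SE 0.049, adjusted p = 0.162, same test), and its conditions overlapped at 108 to 131 and 108 to 116 CPM. CITED4, a relative of CITED2, fell with a log2(FC) of -0.29 (SE 0.12, adjusted p = 0.0454, same test) on 73 to 125 reads per library with overlapping conditions, a call lost in 8 of 12 other settings. FOXO6, INSRR, IRS4, CITED1 and BCL6B held at most 2 reads in any library and were not tested.

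**Figure D4:**
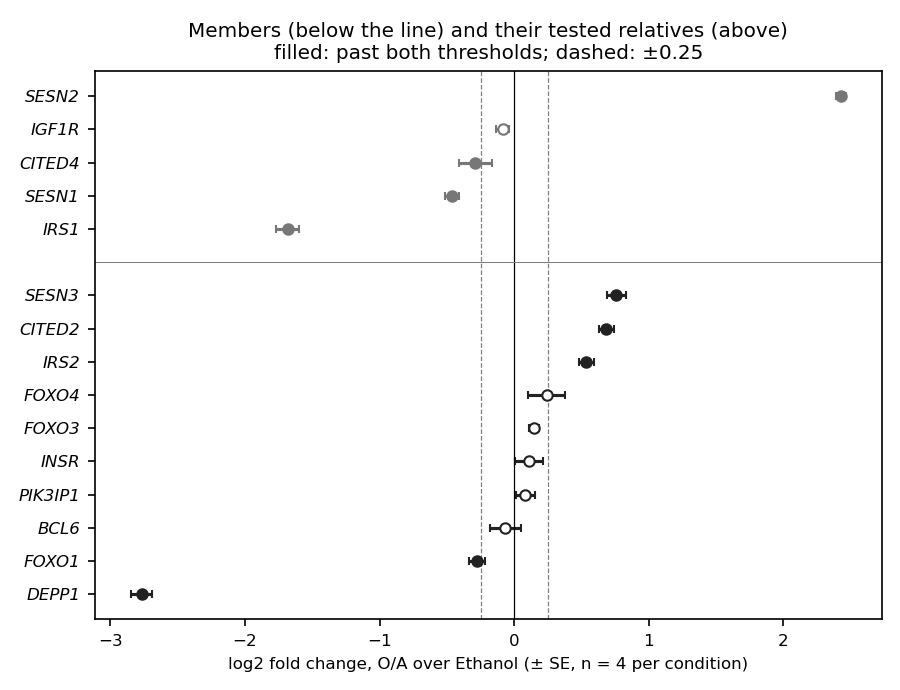
Log2(FC) of O/A over ethanol (horizontal axis, bars of 1 SE, 4 libraries per condition) for the 10 genes, below the line, and their 5 tested relatives, above it. Filled points pass both thresholds and dashed lines mark 0.25 in either direction; DEPP1 lies at -2.77, IRS1 at -1.68 and SESN2 at 2.43.

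Upstream of the FOXO factors, in a list of 32 genes of insulin and IGF signaling, PI3K, AKT and their phosphatases and inhibitors, 31 were tested and 13 passed both thresholds (41.9%, against 34.7% of all genes tested), 6 upregulated and 7 downregulated. The median log2(FC) was -0.02. The kinases AKT1 and AKT2 did not pass the fold threshold, with a log2(FC) of -0.10 and 0.01. The largest rises were those of TRIB1, a pseudokinase (log2(FC) 1.78, SE 0.053, edgeR quasi-likelihood adjusted p = 6.16e-33), TRIB3, a pseudokinase that binds AKT and is also a target of ATF4 (1.74, SE 0.027, adjusted p = 2.71e-45), and PIK3CD, a catalytic subunit of PI3K (0.57, SE 0.069, adjusted p = 7.18e-10). After IRS1, the largest falls were those of TRIB2, a pseudokinase known to restrain FOXO3 (-1.46, SE 0.12, adjusted p = 7.25e-15), and PIK3R3, a regulatory subunit of PI3K (-1.26, SE 0.083, adjusted p = 1.30e-18).

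Of 37 genes whose proteins modify, bind or move FOXO proteins, 34 were tested, and 3 were upregulated and 7 downregulated (29.4%, against 34.7% of all genes tested), with a median log2(FC) of -0.01. SIRT1, a deacetylase of FOXO proteins, rose (log2(FC) 0.50, SE 0.052, edgeR quasi-likelihood adjusted p = 7.51e-12), as did the acetyltransferase CREBBP (0.39, SE 0.065, adjusted p = 2.25e-04) and the stress kinase MAPK8 (0.31, SE 0.044, adjusted p = 4.72e-08). PRMT6, an arginine methyltransferase, fell (-1.33, SE 0.062, adjusted p = 1.30e-24), as did SKP2, a ubiquitin ligase subunit that marks FOXO1 for degradation (-1.15, SE 0.048, adjusted p = 1.44e-26), and YWHAH, one of the proteins that hold phosphorylated FOXO in the cytoplasm (-0.58, SE 0.032, adjusted p = 1.44e-21). SFN, of the same protein family, also passed both thresholds, with a log2(FC) of -0.28. The other family members in the list, YWHAG (-0.21), YWHAZ (-0.04), YWHAQ (-0.02), YWHAE (-0.02) and YWHAB (-0.02), did not pass the fold threshold.

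Of 57 other genes described as FOXO targets 47 were tested, and 23 were upregulated and 8 downregulated, 66% of those tested against 34.7% of all genes, with a median log2(FC) of 0.24. No statement about FOXO activity rests on this count, since many of these genes answer to other stress factors as well, the list was written with results of these data known, and RICTOR and TRIB1 also stand in the upstream list and SESN1 among the relatives. The largest rises were those of TXNIP, an inhibitor of thioredoxin that is also under control of glucose-sensing factors (log2(FC) 2.28, SE 0.029, edgeR quasi-likelihood adjusted p = 9.89e-47), PMAIP1, a pro-apoptotic protein that p53 and ATF4 also switch on (2.01, SE 0.039, adjusted p = 6.33e-41), and ATF3, a stress-induced transcription factor (1.98, SE 0.045, adjusted p = 1.29e-23). The largest falls were those of S1PR1, a receptor for sphingosine 1-phosphate (-1.70, SE 0.079, adjusted p = 1.25e-24), PLK1, a kinase of mitosis (-1.37, SE 0.047, adjusted p = 3.11e-30), and TGFB2, a growth factor (-1.17, SE 0.083, adjusted p = 7.04e-17). The 10 list genes that were not tested had too few reads, among them the liver enzymes PCK1 and G6PC1.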

How the data were processed

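mRNA-seq libraries were grouped by the condition in their labels, 4 ethanol and 4 O/A. The authors isolated mRNA with oligo(dT), aligned paired-end reads to GRCh38.p13 (HISAT2 2.0.1, per the submitters' processing notes) and counted them on Ensembl genes (HTSeq 0.6.1). The deposited counts are not normalized, and the annotation release and strand setting are not given in the sources used here. The deposited FPKM values divide the counts by exonic gene size and library total. The authors' own DESeq2 comparison, with fold changes and p-values, was not used.

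Counts were tested with edgeR 4.0.16 in R 4.3.3 (TMM, robust quasi-likelihood, Benjamini-Hochberg over 14893 genes that reached 10 counts in 4 or more libraries). Alternatives were DESeq2 1.42.0, median-ratio scaling, no filter, a block for the replicate number, leaving out single libraries, and fold thresholds of 0 and 1. The members, gene lists and tests were chosen with earlier results of these data known. Genes named were all members, the tested relatives, the 3 largest rises and falls past the thresholds in each list, the 3 profiles nearest to DEPP1 (log2 CPM with a pseudocount of 0.5) and tested overlapping genes. FOXO3B, ZNF286B, the AKT genes and the other genes of the YWHAH family were named outside this rule, after their values were seen. No library pair agreed within sampling noise (chi-square per gene at least 1.76). Total counts were 17210404 to 20999927 per library, which leaves genes with under about 100 counts imprecise. Some genes are not reported here.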

Additional observations from a re-analysis of the deposited data

Results flagged for a closer look

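Within a condition, 3 of the 64 groups of 4 libraries examined held a library far from the other 3, and chance gives about 1 in 20. DEPP1 had 3.99 CPM in O/A replicate 2 and 4.77 to 4.92 CPM in the other O/A libraries. TRIB1 had 18.5 CPM in ethanol replicate 4 and 16.0 to 16.4 CPM in the other ethanol libraries. PLK1 had 31.8 CPM in O/A replicate 1 and 27.5 to 27.8 CPM in the other O/A libraries. For each gene the conditions stayed apart with that library included.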

How the results depend on the processing

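With no fold threshold 7999 of the 14893 genes tested passed, as did 20 of the 34 FOXO regulators tested. With an absolute log2(FC) above 1, 797 of the 14893 genes tested passed. In the lists these were 1 of 10 members (DEPP1), 5 of 31 upstream genes, 2 of 34 regulators, 13 of 47 other targets and 2 of 5 relatives. DESeq2, median-ratio scaling and no filter gave 4859, 5190 and 5271 genes. With the replicate block 5160 genes passed, 5117 of them shared with the fit without it, and the same number of members, 5. Libraries with the same replicate number did not deviate together (correlations 0.04, 0.00, -0.03 and 0.07), so the numbers were not read as pairs. With single libraries left out, 4987 to 5114 genes and 4 to 6 members passed, FOXO1 being lost without O/A replicate 1 or 3 and FOXO4 gained without ethanol replicate 4, and the log2(FC) of BCL6 ran from -0.19 to 0.018, turning sign without O/A replicate 3. Over all 12 other settings of the fit, the log2(FC) was -2.80 to -2.69 for DEPP1, 0.67 to 0.84 for SESN3, 0.65 to 0.72 for CITED2 and 0.50 to 0.56 for IRS2. The cause of the changes was not tested. Scaling moved the median of all genes by 0.01. FOXO4, INSR and BCL6 had 66 to 191 reads per library, and DEPP1 had 74 to 93 in O/A.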
